A study of Mus musculus with 12 samples.

Results

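The DNAJ (HSP40) proteins were followed in undifferentiated spermatogonia of control and cryptorchid mouse testes. The members are the rows of the deposited expression table whose symbol starts with *Dnaja*, *Dnajb* or *Dnajc* and a number, which gave 45 genes of 21859. They comprise 4 genes of type A, 13 of type B and 28 of type C. Of these, 44 passed the limit on low expression, a log2 of the mean RPM (reads scaled to the size of the library) over the 12 libraries above -1, as did 16932 genes of the whole table. The member that did not pass was *Dnajc22*, with a log2 of the mean RPM of -1.68. The members closest above the limit were *Dnajb5* (-0.52), *Dnajc6* (2.14) and *Dnajc30* (2.46).

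DNAJ proteins carry a J domain, which stimulates the ATPase of HSP70 chaperones and thereby lets HSP70 hold a client protein. Nucleotide exchange factors such as BAG proteins and HSP110 then release the client, so a DNAJ protein chooses where and on what HSP70 acts. Types A and B resemble the bacterial DnaJ protein to different degrees and often bind clients themselves, whereas type C members share little beyond the J domain and serve fixed places such as the mitochondrial import pore, the ribosome or the clathrin coat. In the testis several DNAJ genes are known for expression in spermatids, the haploid cells that follow meiosis. *Dnajb1* is the classic heat-inducible member, and in cryptorchidism the testis stays at body temperature instead of the lower temperature of the scrotum.

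RNA was measured by Smart-seq2, a full-length method for few cells, in sorted GFRa1+/KIT- cells. Each library held RNA equal to that of about 200 cells. Per the study's methods the cDNA was made from a part of the RNA of a larger number of cells. GFRa1 marks the undifferentiated spermatogonia that include the stem cells, and KIT marks those that have begun to differentiate. All mice were adult ICR animals with a GFRa1-EGFP reporter. The cryptorchid group (n=7) came from left testes attached to the abdominal wall and taken at day 10 after surgery, and the control group (n=5) from right testes left in the scrotum. The labels write the genotype of the first as Cryptorchid and of the second as WT, although the groups differ by surgery. Per the study's methods the control tubules were digested at a lower temperature than the cryptorchid tubules, so digestion and surgery cannot be told apart. It is not stated which of the libraries came from the same mouse. *P*-values therefore measure the spread between these libraries, which may be technical. In sorted bulk samples fewer cells of a type and less RNA per cell cannot be told apart.

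Between 4511730 and 24345368 reads lay on genes in the control libraries and between 3306771 and 20027902 in the cryptorchid libraries. The members took 17553 to 100826 of these reads in each control library and 12541 to 88810 in each cryptorchid library. Control replicate 3 and cryptorchid replicates 2 and 3 stood apart over the members. Control replicate 3 was the lowest control library for 24 of 44 members, cryptorchid replicate 3 the lowest cryptorchid library for 20, and cryptorchid replicate 2 for 15. Their medians over the members lay 0.61, 0.65 and 0.47 log2 units below the mean of their group, against 0.35, 0.33 and 0.19 below it over all genes tested. Replicates 1 to 3 of both groups also differed from the later replicates in the share of even read numbers (53.2 to 60.8% against 48.2 to 50.5% of values of 1 to 20 reads), and differences within each set are given for the members whose call they change. The 13 markers of undifferentiated spermatogonia were present in both groups, with sums of 1159 to 1656 RPM in control and 1305 to 2022 RPM in cryptorchid libraries. In the limma fit 0 of them were called different, and 2 had an unadjusted *P*-value under 0.05. In control replicates 1, 4 and 5 the spermatid markers summed to more, at 1736, 3136 and 3862 RPM against 1159, 1582 and 1656. The same held for cryptorchid replicate 6, at 2553 against 1398 RPM.

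**Figure D1:**
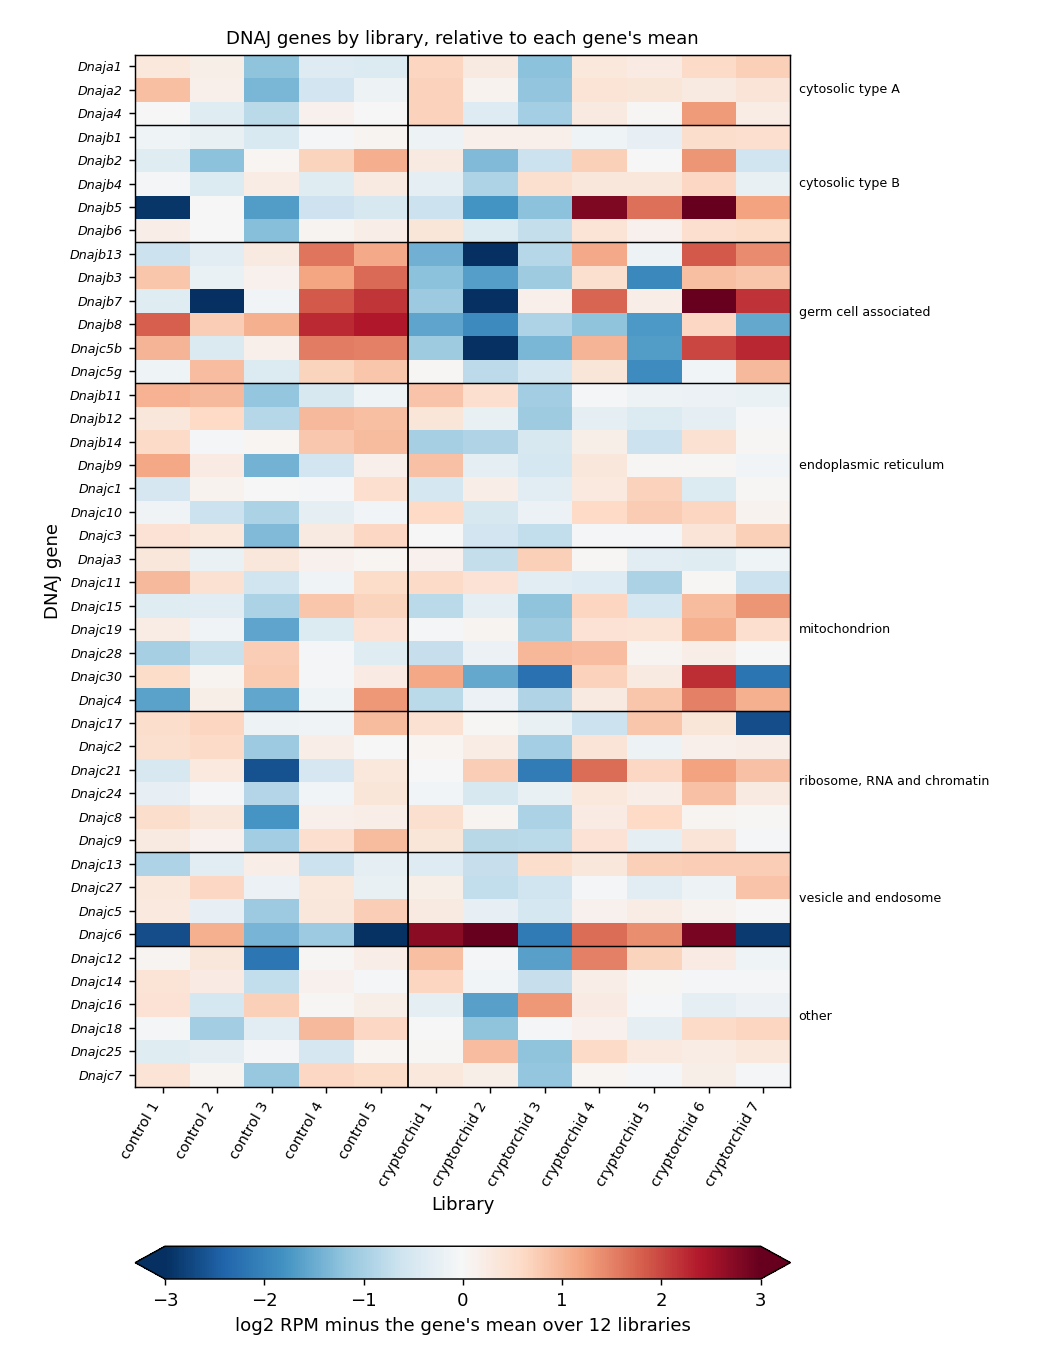
Log2 RPM of the 44 DNAJ genes tested (rows, ordered by role) in the 12 libraries (columns) relative to each gene's mean over all libraries, with colours limited at 3 log2 units. *Dnajb8* is red in all 5 control libraries and blue in 6 of 7 cryptorchid libraries, and control replicate 3 and cryptorchid replicate 3 are blue over many roles.

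The question was whether DNAJ genes were expressed at other levels in spermatogonia of the cryptorchid testis. The family as a whole showed no common direction. The median log2 difference of the 44 members, cryptorchid minus control, was -0.02 (quartiles -0.29 and 0.38), beside 0.10 for all 16932 genes tested. The median absolute difference was 0.36 for the members and 0.40 for all genes. The mean was higher in cryptorchid libraries for 21 members (47.7%), against 56.7% of all genes, and 27 of the 44 differed by less than 0.5 log2 units.

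A gene was called when it differed by more than 2-fold with an unadjusted limma *P*-value under 0.05. By this rule 2 members fell in cryptorchid spermatogonia, *Dnajb8* and *Dnajb3*, which is 4.55% of the members against 2.36% of all genes. A single member rose, *Dnajc6*, which is 2.27% of the members against 3.56% of all genes. With quantile normalization the calls over all genes moved from 603 higher and 399 lower to 457 higher and 542 lower, while *Dnajb8*, *Dnajb3* and *Dnajc6* were the members called under both. An unadjusted *P*-value under 0.05 in either direction was found for 6 members (13.6%) against 9.48% of all genes, and 3 of the 6 were higher. After Benjamini-Hochberg adjustment over all genes 0 members passed 0.05 in the limma fit, where 0.0118% of all genes did. With voom on the recovered reads 1 member, *Dnajb8*, passed, and with array weights 2, *Dnajb8* and *Dnajc13*. A term for the replicate number (replicate block) was an alternative only, as shared mice are not stated. With it 6 members passed: *Dnajb8*, *Dnajb3*, *Dnajb13*, *Dnajb14*, *Dnajc5b* and *Dnajc10*. Every cryptorchid library lay below every control library for 1 member, *Dnajb8*, and for 0.283% of all genes, and the opposite separation was found for 0 members and 0.555% of all genes.

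**Figure D2:**
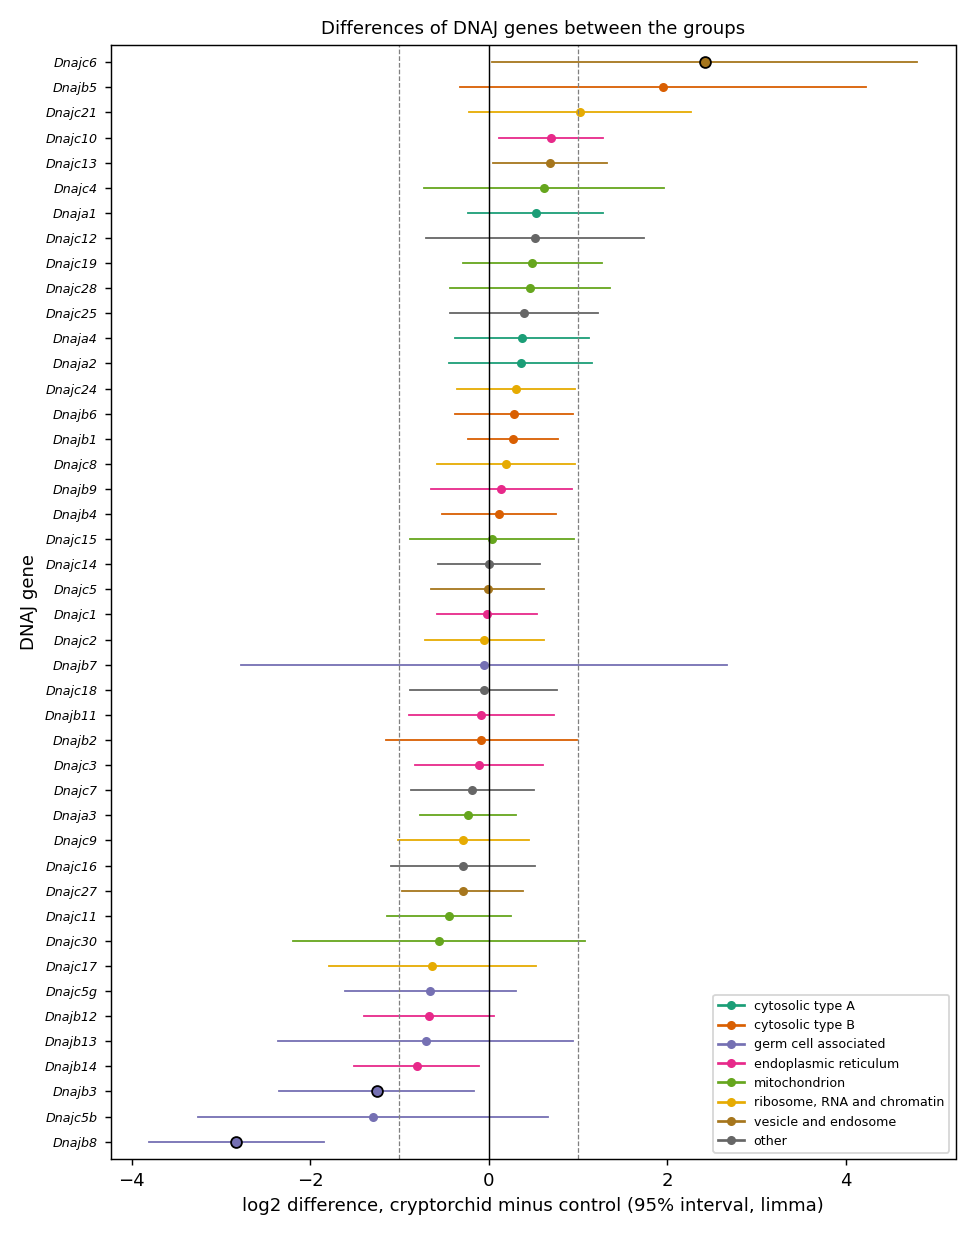
Log2 difference, cryptorchid minus control, of each DNAJ gene tested (points) with its 95% interval from limma (lines), coloured by role; points with a black rim were called, and dashed lines mark a 2-fold difference. *Dnajb8* at -2.83 has the interval farthest from 0, whereas *Dnajc6* and *Dnajb5* at the top have wide intervals.

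*Dnajb8* encodes a small type B chaperone that keeps aggregation-prone proteins soluble and is known for its expression in testis. It lies on chromosome 6, with its protein-coding transcript of 990 bp as a single exon at chr6:88222268-88223257 on the plus strand (GRCm38). The 250 bases before its start are shown because this member had the clearest difference, at chr6:88222018-88222267 on the plus strand (RefSeq, GRCm38.p6).
*Dnajb8* upstream: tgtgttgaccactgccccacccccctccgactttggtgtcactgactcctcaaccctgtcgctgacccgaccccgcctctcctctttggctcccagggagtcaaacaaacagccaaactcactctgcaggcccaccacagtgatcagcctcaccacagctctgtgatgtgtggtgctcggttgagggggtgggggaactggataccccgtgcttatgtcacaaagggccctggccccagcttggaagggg

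In the 5 control libraries *Dnajb8* stood at 5.75, 4.69, 5.02, 6.18 and 6.35 log2 RPM, from 331 to 1313 reads. In the 7 cryptorchid libraries it stood at 2.38, 2.04, 3.02, 2.74, 2.23, 4.58 and 2.42 log2 RPM, from 16 to 116 reads. The groups did not overlap, and cryptorchid replicate 6 came closest to the controls. The difference was -2.83 ± 0.47 log2 units (SE; 95% interval -3.81 to -1.85), or 7.09-fold lower. Its *P*-value in the limma fit ranked 3 of 16932 genes, with an adjusted *P*=0.0590 and a range of 0.00154 to 1 over 26 alternatives, of which 10 were under 0.05. An exact two-sided rank sum test gave *P*=0.00253, the smallest that 5 against 7 libraries allow. It was lower by 2.68 log2 units within replicates 1 to 3 and by 3.27 within the later replicates. In GENCODE an antisense transcript, *1700031F10Rik*, shares 523 bp of the *Dnajb8* exon, and as the counting strand is not stated the reads of both cannot be told apart.

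*Dnajb3*, a type B gene without introns that is known for expression in spermatids, lies within the *Ugt1a* cluster on the opposite strand at chr1:88204732-88205782 (GRCm38) and shares no exon with it. Its upstream sequence, at chr1:88205749-88205998 on the minus strand from another annotated start (RefSeq, GRCm38.p6), is shown for comparison with *Dnajb8*.
*Dnajb3* upstream: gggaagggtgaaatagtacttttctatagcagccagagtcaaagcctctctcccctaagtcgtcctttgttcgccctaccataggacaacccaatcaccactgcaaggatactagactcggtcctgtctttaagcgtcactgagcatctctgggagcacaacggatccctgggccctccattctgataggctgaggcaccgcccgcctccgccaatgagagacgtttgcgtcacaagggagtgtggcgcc

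*Dnajb3* stood at 6.22, 5.18, 5.50, 6.57 and 7.09 log2 RPM in control libraries and at 4.14, 3.74, 4.31, 5.87, 3.44, 6.29 and 6.22 in cryptorchid libraries. The groups overlapped: 4 of 7 cryptorchid libraries lay below all controls, and cryptorchid replicates 4, 6 and 7 lay among them. The difference was -1.25 ± 0.52 log2 units (SE; 95% interval -2.34 to -0.16), with an adjusted *P*=0.463 in limma and an exact two-sided rank sum *P*=0.106. The call was lost when control replicate 4 or 5 or cryptorchid replicate 1, 2 or 5 was left out, with differences of -1.01 to -1.14 log2 units.

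**Figure D3:**
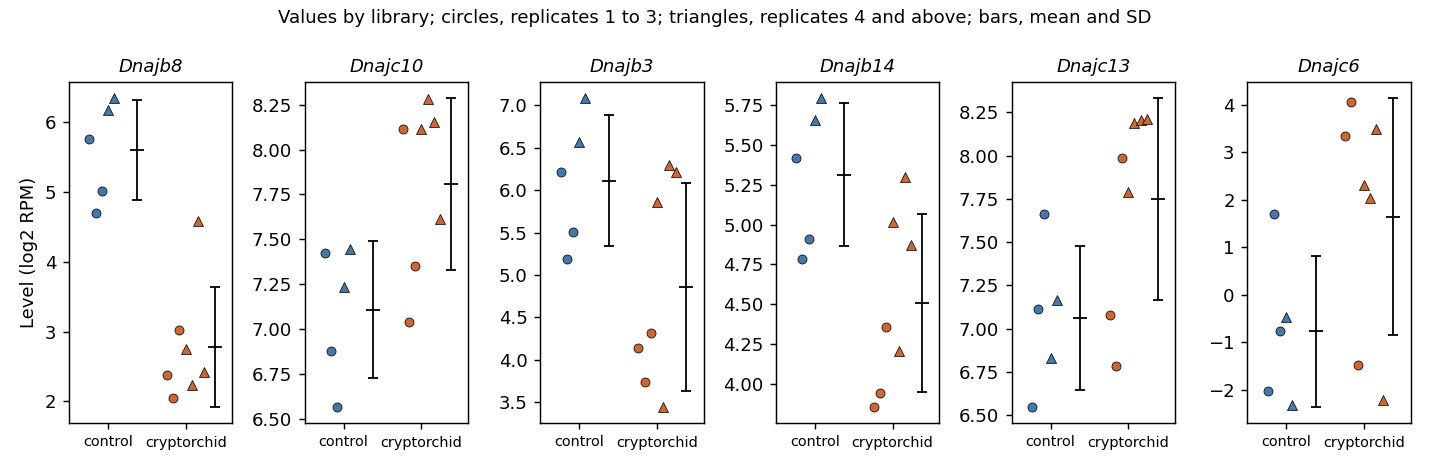
Log2 RPM by library of the 6 DNAJ genes with an unadjusted limma *P*-value under 0.05, each panel on its own scale; circles are replicates 1 to 3, triangles later replicates, and bars the mean and SD (control n=5, cryptorchid n=7). The groups separate for *Dnajb8* and overlap for the other 5 genes.

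The other members with known expression in germ cells were *Dnajb7*, another type B gene without introns, *Dnajb13*, a component of the sperm flagellum's radial spokes, and *Dnajc5b* and *Dnajc5g*, relatives of the vesicle chaperone DNAJC5. With *Dnajb8* and *Dnajb3* they made 6 genes, all with a lower mean in cryptorchid libraries, although that of *Dnajb7* turned higher with log2(RPM + 1), a common floor or array weights. The median of the 6 was -0.98 log2 units, beside 0.10 over all genes, and 2 of the 6 were called.

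*Dnajc5b* ranged from 3.80 to 5.76 log2 RPM in control and from -0.67 to 6.48 in cryptorchid libraries, with a median of 3.16 there, and differed by -1.29 ± 0.93 (SE). *Dnajb13* ranged from 3.96 to 6.22 and from 0.61 to 6.45, with a median of 4.46, and differed by -0.70 ± 0.79. *Dnajc5g* ranged from 3.71 to 5.03 and from 2.23 to 5.09, with a median of 4.02, and differed by -0.65 ± 0.46. The cryptorchid libraries spread over more than the whole control range for all 3 genes. With the replicate block *Dnajc5b* and *Dnajb13* were called. In the limma fit without it none of the 3 was called, with adjusted *P*-values of 0.685 to 0.815. Without cryptorchid replicate 2 the differences were -0.57 for *Dnajc5b* and -0.09 for *Dnajb13*. *Dnajb7* had no reads in that library and differed by -0.05 ± 1.30.

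The sizes of these differences varied between the technical sets, which was not tested. Within replicates 1 to 3 *Dnajc5b* was lower by 2.70 log2 units and *Dnajb13* by 1.87, and both were called in that set alone. Within the later replicates the differences were -0.62 and -0.31, and neither was called. *Dnajb3* differed by -1.57 in replicates 1 to 3 and by -1.38 in the later ones, where it was not called.

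Most markers of spermatids also had a lower mean in cryptorchid libraries. Of 14 spermatid markers 7 were called lower, among them the protamine genes *Prm1* and *Prm2*, 13 had a lower mean, their median difference was -2.28 log2 units, and 0 of the 14 were without reads in every library. Their sum was 710.2 to 3862 RPM in control and 39.2 to 2553 RPM in cryptorchid libraries. Cryptorchid replicate 6, with the highest *Dnajb8* of its group, also had the highest spermatid sum of its group, and cryptorchid replicate 2 had the lowest of both. *Dnajb8* in cryptorchid replicate 6 was lower (4.58) than in control replicate 2 (4.69), whose spermatid sum was 710.2 RPM. Cryptorchid replicates 4 and 7 also had higher spermatid sums than that control, 1019 and 930.1 RPM. Their *Dnajb8* stood at 2.74 and 2.42 log2 RPM, near the 2.04 of cryptorchid replicate 2, whose spermatid sum was 39.2 RPM. The markers in this sum differed among themselves. In cryptorchid replicates 4 and 7 *Prm2* stood at 7.58 and 5.30 log2 RPM, below its 8.41 to 10.37 in control. *Akap4*, another of these markers, stood at 7.53 and 7.29, within its 5.84 to 8.96 in control. Both were picked here after their values were seen. The part of spermatid RNA in the differences of the germ cell members was not tested. The 10 spermatocyte markers had 0 calls and a median of 0.08.

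**Figure D4:**
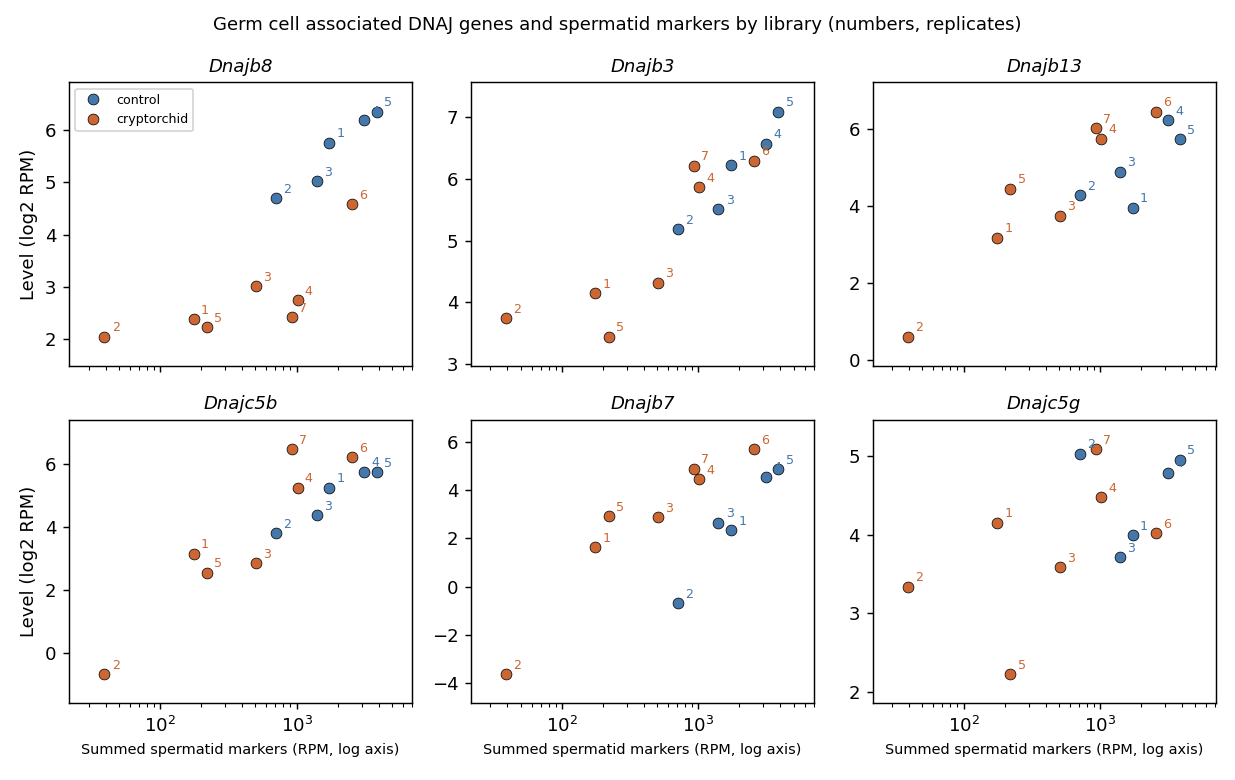
Log2 RPM of the 6 germ cell associated DNAJ genes (y axes) against the summed spermatid markers in RPM (x axes, log scale), 1 point a library with its replicate number. Cryptorchid replicates 4, 6 and 7 lie among or above the controls for *Dnajb3*, *Dnajb13*, *Dnajc5b* and *Dnajb7*, but below all of them for *Dnajb8*.

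Summed over the 6 genes, the germ cell members took 129 to 385 RPM in control libraries and 29.7 to 334 RPM in cryptorchid libraries. Cryptorchid replicates 4, 6 and 7 held 201, 334 and 298 RPM and so lay within the control range, and the other 4 cryptorchid libraries held 68.1 RPM or less. The sums of the other roles overlapped between the groups.

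The cytosolic members that serve general protein folding had 0 calls. All 3 cytosolic type A genes, *Dnaja1*, *Dnaja2* and *Dnaja4*, had higher means in cryptorchid libraries, with differences of 0.36 to 0.53 log2 units, and 0 of them were called; within replicates 1 to 3 alone *Dnaja2* was slightly lower. *Dnaja1* ranged from 7.46 to 8.998 log2 RPM in control and from 7.44 to 9.38 in cryptorchid libraries (median 8.99) and differed by 0.53 ± 0.36 (SE; adjusted *P*=0.676 in limma). The difference was 0.77 without cryptorchid replicate 3 and 0.30 without control replicate 3, the lowest libraries of their groups. It was 0.14 within replicates 1 to 3 and 0.87 within the later replicates. *Dnaja1* matched 3 processed pseudogenes at 97.1 to 99.4% identity and shares 608 bp of exon with *Smu1* on the opposite strand, so its reads are uncertain.

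*Dnajb1*, the heat-inducible type B member, varied little between libraries, with 5.69, 5.61, 5.37, 5.78 and 5.91 log2 RPM in control and 5.58 to 6.36 in cryptorchid libraries (median 5.98). It differed by 0.27 ± 0.24 log2 units (SE; 95% interval -0.23 to 0.78), so that a 2-fold difference lay outside the interval. *Dnajb4*, another stress-responsive member, differed by 0.12 ± 0.30 and *Dnaja4* by 0.37 ± 0.36. *Dnaja4* shares 1581 bp of its 3544 bp of exon with *Wdr61* on the opposite strand, so its reads are uncertain. *Dnajb6*, which suppresses aggregation, differed by 0.28 ± 0.31, and by 0.00 without control replicate 3; it matched 5 processed pseudogenes at 97.3 to 99.6% identity, so its reads are uncertain. *Dnajb5* differed by 1.96 ± 1.08, but it rested on 0 to 17 reads a library and its 95% interval ran from -0.32 to 4.23. It passed the limit on low expression only through the cryptorchid group, with a mean of 0.157 RPM in control, where 3 libraries had no reads, and 1.08 RPM in cryptorchid libraries. A higher value was thus partly fixed by the limit. Within replicates 1 to 3 it differed by 0.31 and within the later replicates by 2.90, where it was called, as it was without cryptorchid replicate 2 (2.39).

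Heat shock factor binds heat shock elements, here searched as 3 adjacent 5-base units NGAAN in alternating orientation on both strands. Promoter windows (250 bases before to 50 after a RefSeq start) were held for 37 of the 45 members. Such an element was in a window of 1 of these 37 (2.70%), *Dnajb6*, and of 98 of 16802 genes of the table (0.583%). It is shown in capitals with 25 bases on each side, at chr5:29735826-29735890 on the plus strand (GRCm38.p6). The element ended 33 or 114 bases before the start of *Dnajb6*, depending on the RefSeq start. In GENCODE the gene starts at 29735688, so the element lies downstream of that start.
*Dnajb6* element: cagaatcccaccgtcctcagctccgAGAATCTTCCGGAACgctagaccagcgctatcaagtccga
The windows of *Dnajb8*, *Dnajb3* and the heat-inducible *Dnajb1* held no such match. The search required all 3 units within the window, so a missing match does not show that an element is absent. A match in these letters is a description and not evidence of binding.

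The endoplasmic reticulum (ER) members assist HSP70 proteins at the ER in folding and in the removal of misfolded proteins. Of 7 genes 0 were called, 5 had a lower mean and their median difference was -0.08. *Dnajc10*, an ER disulfide reductase, stood at 7.42, 6.88, 6.57, 7.23 and 7.45 log2 RPM in control and at 7.04 to 8.28 in cryptorchid libraries (median 8.11). In 5 of 7 cryptorchid libraries it lay above all controls, and the difference was 0.70 ± 0.28 (SE; adjusted *P*=0.434 in limma). *Dnajb14*, an ER membrane member, went the other way, with 5.42, 4.78, 4.91, 5.66 and 5.80 log2 RPM in control and 3.85 to 5.30 in cryptorchid libraries (median 4.36). It lay below all controls in 4 of 7 cryptorchid libraries and differed by -0.81 ± 0.33 (adjusted *P*=0.463 in limma). With the replicate block *Dnajb14* was called, at -1.04 log2 units. Its relative *Dnajb12* differed by -0.67 ± 0.35 in the fit without the block (adjusted *P*=0.563 in limma). *Dnajb12* differed by -0.34 within replicates 1 to 3 and by -1.18 within the later replicates, where it was called.

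*Dnajb9*, *Dnajb11* and *Dnajc3*, which rise in the unfolded protein response, differed by less than their SE. They were fixed names and not every member of that response. *Dnajb9* differed by 0.14 ± 0.38 log2 units, *Dnajb11* by -0.08 ± 0.39 and *Dnajc3*, an inhibitor of the kinase PERK, by -0.10 ± 0.34. The lowest bound of their 95% intervals was -0.89 and the highest 0.93. *Dnajb11* and *Dnajc3* ran from 5.28 to 7.47 and from 4.90 to 6.85 log2 RPM within the control group, more than the difference between the groups.

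Of the vesicle and endosome members *Dnajc6*, which encodes auxilin and uncoats clathrin vesicles, was the one called. It had 6, 94, 6, 4 and 0 reads in the control libraries and 226, 187, 3, 23, 14, 51 and 1 in the cryptorchid libraries. This gave -2.02, 1.71, -0.77, -0.46 and -2.33 log2 RPM in control and 3.34, 4.07, -1.49, 2.31, 2.04, 3.49 and -2.22 in cryptorchid libraries. The groups overlapped, as cryptorchid replicates 3 and 7 were as low as the controls and control replicate 2 was near the other cryptorchid libraries.

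The difference in *Dnajc6* was 2.42 ± 1.13 log2 units (SE; 95% interval 0.04 to 4.80), with an adjusted *P*=0.522 in limma and an exact two-sided rank sum *P*=0.106. Leaving out control replicate 1, 3, 4 or 5 or cryptorchid replicate 1, 2, 4, 5 or 6 ended the call, with differences of 2.02 to 2.50. The fold rests on values near the floor and counts 1 control library without reads. With control replicate 3 and cryptorchid replicates 2 and 3 left out together, an alternative chosen after seeing the data, *Dnajc6* was not called, *Dnajb5* was, with the limit described above, and *Dnajb8* was the member called lower. *Dnajc6* differed by 2.33 within replicates 1 to 3 and by 2.80 within the later replicates and was called in neither set alone.

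*Dnajc13*, an endosomal protein that acts on the WASH complex, stood at 6.55, 7.11, 7.66, 6.83 and 7.17 log2 RPM in control and at 6.78 to 8.21 in cryptorchid libraries (median 7.98). The difference was 0.69 ± 0.30 (SE; adjusted *P*=0.489 in limma), with 5 of 7 cryptorchid libraries above all controls. It was 0.18 within replicates 1 to 3 and 1.10 within the later replicates, where it was called. *Dnajc22*, which did not pass the limit, was without reads in 3 control and 5 cryptorchid libraries and reached 26 reads at most.

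Mitochondrial members, which drive import and folding in that organelle, had 0 calls of 7 and a median difference of 0.04 log2 units. *Dnajc19*, a part of the import motor, differed by 0.49 ± 0.37, *Dnajc4* by 0.62 ± 0.64 and *Dnajc30* by -0.56 ± 0.78. *Dnajc19* matched a processed pseudogene at 99.1% identity, and *Dnajc30* shares 436 bp of exon with *Bud23* on the opposite strand. Of the 6 members at ribosomes, RNA and chromatin 0 were called and the median was 0.07. *Dnajc2*, which binds the ribosome and serves nascent chains, differed by -0.05 ± 0.32.

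*Dnajc21*, which acts in ribosome maturation, differed by 1.03 ± 0.59 log2 units (adjusted *P*=0.609 in limma). It stood at 4.16, 4.92, 2.01, 4.13 and 4.95 log2 RPM in control and at 2.54 to 6.31 in cryptorchid libraries (median 5.36). Control replicate 3 and cryptorchid replicate 3 held the low ends of both groups. The difference was 0.52 without control replicate 3 and 1.44, then called, without cryptorchid replicate 3. It was 0.48 within replicates 1 to 3 and 1.18, also called, within the later replicates.

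Members of different length were compared per kb of exon. *Dnaja2* was highest, at 113 ± 64.8 RPM per kb in control (SD, n=5) and 135 ± 41.7 in cryptorchid libraries (SD, n=7), and exceeded the next gene, *Dnajc7*, in 10 of 12 libraries. *Dnajc8*, *Dnaja1* and *Dnajc2* followed, and the order of *Dnajc8* and *Dnaja1* held in 7 of 12 libraries only. By group means *Dnajb3* ranked 4 of 45 in control and 10 in cryptorchid libraries, and *Dnajb8* ranked 7 and 32. *Dnajb8* had 53.8 ± 24.5 RPM per kb in control and 8.38 ± 7.09 in cryptorchid libraries. At the low end *Dnajc25* exceeded *Dnajc6* in 12 of 12 libraries, and *Dnajc6*, *Dnajc22* and *Dnajb5* had means below 1 RPM per kb over all libraries.

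**Figure D5:**
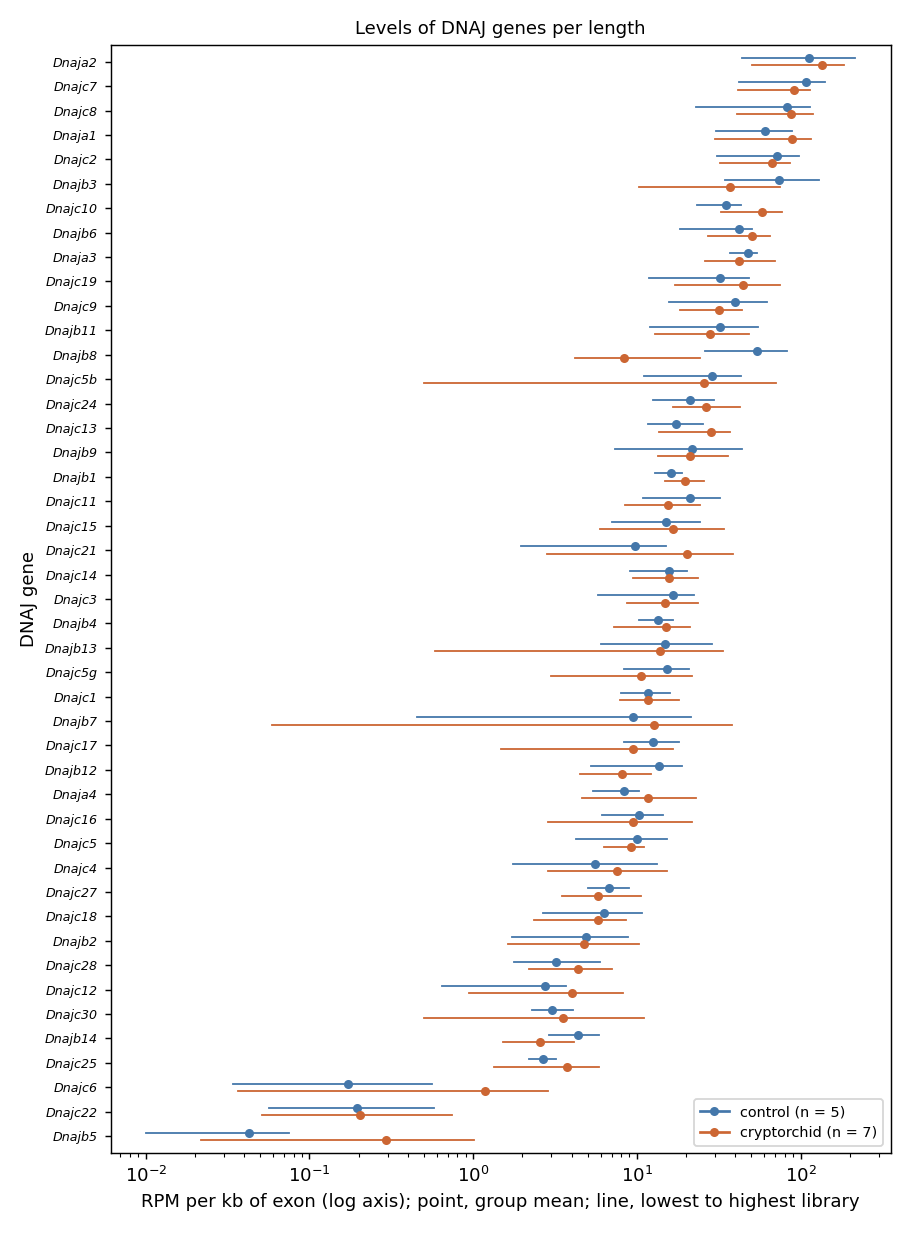
Level per exon length of the 45 DNAJ genes in RPM per kb (log axis), with the group mean (point) and the lowest to highest library (line) for control and cryptorchid. The ranges of the groups separate for *Dnajb8* and overlap for the other genes.

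The partners of DNAJ proteins were examined as lists. Of 13 HSP70 and HSP110 genes 1 was called higher and 1 lower, with a median of 0.03 log2 units. *Hsph1*, an HSP110 that exchanges nucleotides on HSP70 and is induced by heat, stood at 6.62, 6.26, 6.29, 6.28 and 6.02 log2 RPM in control and at 6.89 to 8.08 in cryptorchid libraries. The groups did not overlap, and the difference was 1.20 ± 0.25 (SE; adjusted *P*=0.129 in limma, 0.00328 to 1 over 26 alternatives). *Hspa1l*, an HSP70 known for expression in spermatids, differed by -1.61 ± 0.71 (adjusted *P*=0.489), and this call was lost when control replicate 1, 4 or 5 or cryptorchid replicate 1, 2, 3 or 5 was left out. In replicates 1 to 3 alone *Hsph1* differed by 0.86 and was not called. The heat-inducible genes *Hspa1a* and *Hspa1b* had lower means by 1.02 ± 0.99 and 0.96 ± 0.67 log2 units, and the constitutive *Hspa8*, the partner of most cytosolic members, differed by 0.63 ± 0.43; these 3 were named after their values were seen.

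Of 12 nucleotide exchange factors and cofactors 0 were called and the median was -0.04 log2 units. The smallest *P*-values were those of the ubiquitin ligase *Stub1* (-0.44 ± 0.28) and of *St13* (0.43 ± 0.28), with adjusted *P*-values of 0.643 and 0.657 in limma. Of 5 J-domain proteins with other names 0 were called. *Sec63*, the J-domain protein of the ER translocon, differed by 0.90 ± 0.39 (adjusted *P*=0.479 in limma).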

How the data were processed

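RNA was measured in 12 libraries of sorted spermatogonia (control n=5, cryptorchid n=7). The deposited values are log2 RPM. To make them the authors trimmed reads with Trim Galore 0.6.6, mapped them to mm10 with HISAT2 2.1.0 and counted them over genes in SeqMonk, after FastQC 0.11.8; the counting strand is not stated in the sources used here, datasets with excessive duplicates were excluded, and no molecular identifiers were used. Libraries were grouped by their titles.

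Differences were fitted with limma 3.58.1 in R 4.3.3 (lmFit, eBayes with trend, group as the only term) on the log2 RPM of the 16932 genes above the limit, and adjusted over all of them. Read numbers were recovered from the steps of the values, taking the lowest value of a library as 0.9 reads; all values under 1000 reads were whole within 0.02. Replicates differed by more than counting noise. The depth limits genes of few reads, and read numbers cover counting error only. Exact rank sum tests ran over all choices of 5 of 12 libraries. Exons and positions are those of GENCODE vM21, promoters those of RefSeq (GRCm38.p6). Python 3.11.15, pandas 2.3.3, numpy 2.4.6 and matplotlib 3.10.9 were used, and the fit was tested on simulated data.

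Members, role, pathway and marker lists were chosen with earlier results of these data known. Named members were those called or not overlapping, the 8 with the smallest *P*-values, the highest and the most different of each role, 13 fixed names and those nearest the limit; of each pathway list the genes called or else the 2 with the smallest *P*-values. A gene that this rule names is not reported here. Alternatives were median centring, quantile normalization, pseudocounts of 1 and 0.1, a common floor, no filter or a limit of 2, array weights, voom, a replicate block, a technical set term, each set alone and each library left out.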

Additional observations from a re-analysis of the deposited data

Results flagged for a closer look

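Of 62 groups of libraries checked over 25 DNAJ genes and 6 partner genes, 7 had a library far from the others of its group, where chance gives about 1 in 20. Control replicate 3 was the lowest control library for *Dnajb6* (6.32 log2 RPM against 7.60 to 7.79), *Dnajc3* (4.90 against 6.49 to 6.85), *Dnajc21* (2.01 against 4.13 to 4.95) and *Stub1* (6.04 against 7.11 to 7.28). Without it the differences, cryptorchid minus control, were 0.00 for *Dnajb6*, -0.45 for *Dnajc3*, 0.52 for *Dnajc21* and -0.67 for *Stub1*. Cryptorchid replicate 3 was the lowest cryptorchid library for *Dnaja1* (7.44 against 8.92 to 9.38) and *Dnajc2* (6.55 against 7.44 to 7.97), with differences of 0.77 and 0.12 without it. Cryptorchid replicate 6 was the highest cryptorchid library for *Dnajb8* (4.58 against 2.04 to 3.02), and without it the difference was -3.13.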

How the results depend on the processing

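The call of *Dnajb8* was kept under all 26 alternatives, with differences of -3.27 to -2.64 log2 units. The members called lower (2) ranged from 1 to 2 with 1 library left out, and were 5 with the replicate block (*Dnajb13*, *Dnajb14* and *Dnajc5b* besides), 4 with the technical set term, 4 in replicates 1 to 3 alone and 1 without the 3 libraries of lowest weight, an alternative chosen after seeing the data. The members called higher (1) ranged from 0 to 2 with 1 library left out, and were 0 with median centring, 0 with the limit of 2, 3 with array weights, 0 in replicates 1 to 3 alone and 3 in the later replicates alone. The correlation of same-numbered libraries was 0.347, 0.363, 0.411, 0.250 and 0.0488, and 4 of 5 control libraries correlated best with their own number, a hint of pairing from the data. As shared mice are not stated and the last pair was below the 0.1 asked of every pair, the unpaired fit was kept; with the block *Dnajc5b* differed by -2.36, *Dnajb13* by -1.47 and *Dnajb14* by -1.04, and 6 members had an adjusted *P*-value under 0.05 in limma. The median member difference stayed between -0.16 and 0.18. Directions turned for *Dnajb11* (0.17), *Dnajc2* (0.066) and *Dnajc30* (0.13) in the later replicates alone, *Dnajb4* (-0.16) in replicates 1 to 3 alone, *Dnajb7* with log2(RPM + 1) (0.20), the common floor (0.19) and array weights (0.10), *Dnajc2* with array weights (0.0003), and *Dnajb13* (0.12), *Dnajb7* (1.15), *Dnajb9* (-0.005) and *Dnajc30* (0.22) without the 3 libraries. With 1 library left out they ran from -0.38 to 0.17 for *Dnajb11*, -0.91 to 1.001 for *Dnajb7*, -0.19 to 0.45 for *Dnajb9*, -0.33 to 0.12 for *Dnajc2* and -0.45 to 0.036 for *Dnajc3*. The cause was not tested. The depth limits *Dnajb5* and *Dnajc6*, which had 0 reads in some libraries.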

Other observations

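Among the other marker lists, 3 of 6 endothelial markers were called higher in cryptorchid libraries, with sums of 25.7 to 47.4 RPM in control and 36.9 to 68.3 RPM in cryptorchid libraries. In each of 3 further lists 1 gene was called higher: *Stra8* of 6 markers of differentiating spermatogonia, *Des* of 4 of myoid cells tested and *Lck* of 3 of lymphocytes tested, all named after their values were seen. *Des* and *Tie1*, 1 of the 3 endothelial markers called and also named afterwards, passed the limit on low expression only through the cryptorchid group. Their control means were -3.06 and -3.61 log2 RPM. A higher value of these 2 genes was thus partly fixed by the limit. The limma fit called 0 genes among those of Sertoli cells, Leydig cells and macrophages. *Hsd3b6*, a Leydig marker, had no reads in any library.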
